A study of Mus musculus with 14 samples.

Results

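The genes described here are the glutamate receptors of the mouse, the vesicular transporters that load glutamate into synaptic vesicles, and the scaffold and auxiliary proteins that accompany the receptors. They were chosen by gene symbol alone, with 1 symbol per probe set (the group of probes that reads a transcript) in the platform annotation. Of the 43 gene names that meet the rule, 38 had a probe set here, out of 18193 symbols in all. The other 5 were not analysed here. The 38 members were read by 76 probe sets, and each gene is represented by its probe set of highest mean over all 14 arrays. Values are log2 expression values. Genes above 4, the dim level, in 3 or more of the 14 arrays were tested, which kept 23 of the 38 members and 10295 of all genes.

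The samples were GFP-positive cells sorted by FACS from the cortex of CD1 mouse embryos. All embryos had received a DNA construct by in utero electroporation at E14.5, an injection into the brain ventricle followed by electric pulses that carry the DNA into the progenitors lining it. The groups were the Fezf2GFP vector at 48 h (n = 4), the CtrlGFP vector at 48 h (n = 4), Fezf2GFP at 24 h (n = 3) and CtrlGFP at 24 h (n = 3), with times counted from electroporation. Fezf2 encodes a zinc finger factor that specifies corticospinal neurons of the deep layers, and at this stage the progenitors mainly give rise to neurons of the upper layers. No source used here gives the promoter of the vectors or the number of embryos behind each array.

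Glutamate is the main excitatory transmitter of the brain, and cortical projection neurons release it. It opens the AMPA, kainate and NMDA receptors, which are ion channels, and it acts on metabotropic receptors, which signal through G proteins. AMPA receptors carry most of the fast excitatory current. Their trafficking and kinetics are set by auxiliary membrane proteins, among them the transmembrane AMPA receptor regulatory proteins encoded by Cacng genes and the Shisa proteins, while scaffolds of the Dlg family anchor receptors at the synapse. In the developing cortex young neurons express many of these genes before they form synapses.

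Of the pair of vesicular transporters, Slc17a6 was above the dim level and Slc17a7 below it on every array. The metabotropic receptor gene Grm3 passed higher at 48 h than at 24 h with Fezf2GFP (log2 fold change 2.75) and did not pass with CtrlGFP (2.12). The difference between these changes did not pass either (0.63, SE 1.05, limma adjusted p = 0.998). The promoters of these 3 genes, picked on these results, are shown for orientation. Each is the stretch of 250 bases before the RefSeq gene start in assembly GRCm38.p6, written 5′ to 3′ on the strand of the gene, and 26 of the 38 members had such a window in the table used here. Capitals mark CANNTG, an E-box, which reads the same on both strands. The windows lie at chr7:51621580-51621829 (plus strand, Slc17a6), chr7:45163671-45163920 (plus strand, Slc17a7) and chr5:9725353-9725602 (minus strand, Grm3).
Slc17a6: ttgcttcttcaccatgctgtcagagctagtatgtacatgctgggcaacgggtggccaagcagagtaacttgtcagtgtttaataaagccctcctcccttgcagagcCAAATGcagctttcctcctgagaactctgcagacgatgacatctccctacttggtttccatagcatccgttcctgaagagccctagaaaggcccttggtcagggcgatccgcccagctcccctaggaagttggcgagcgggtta
Slc17a7: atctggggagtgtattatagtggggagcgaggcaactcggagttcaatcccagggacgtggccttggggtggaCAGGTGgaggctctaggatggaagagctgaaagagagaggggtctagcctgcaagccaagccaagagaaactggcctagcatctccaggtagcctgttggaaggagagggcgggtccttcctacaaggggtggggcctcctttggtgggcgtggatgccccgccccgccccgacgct
Grm3: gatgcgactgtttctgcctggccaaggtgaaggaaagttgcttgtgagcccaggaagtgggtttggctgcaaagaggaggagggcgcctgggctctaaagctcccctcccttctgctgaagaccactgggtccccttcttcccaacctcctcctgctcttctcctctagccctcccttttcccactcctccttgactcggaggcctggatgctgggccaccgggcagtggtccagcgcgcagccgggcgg
The Slc17a6 and Slc17a7 windows each held 1 E-box and the Grm3 window held 0, while 66.2% of all 32851 promoter windows of the same length held at least 1. GGGCGG, searched on both strands, occurred 1 time in the Slc17a6 window, 3 times in that of Slc17a7 and 1 time in that of Grm3, and 32.7% of all windows held it. No match of one motif overlapped a match of the other in these windows. The GC content was 53.2% for Slc17a6, 61.2% for Slc17a7 and 62.4% for Grm3, against a median of 52.4% over all windows. A match of letters is not a binding site, and no binding was measured here.

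Array medians lay between 3.26 and 3.5, and correlations between arrays within a group were 0.942 to 0.993. The labels do not state whether replicate arrays derive from separate litters, so the p-values reflect only how far these samples spread, which could be technical in part. A pair of control arrays, CtrlGFP 48 h replicate 2 and CtrlGFP 24 h replicate 1, deviated alike from their group means (correlation 0.593). They are called below the pair of control arrays that stood apart. For members that passed in at least 1 comparison, values without the pair are given where they change a call. Fezf2 itself, read by 1 probe set, went against its label: it averaged 9.44 ± 0.11 in the arrays labelled Fezf2GFP and 11.30 ± 0.42 in those labelled CtrlGFP at 24 h (SD, n = 3 each; limma log2 fold change -1.86, SE 0.38, adjusted p = 0.0324). At 48 h it averaged 9.33 ± 0.70 in the arrays labelled Fezf2GFP and 10.15 ± 0.48 in those labelled CtrlGFP (SD, n = 4 each; adjusted p = 0.239). No source used here says whether this probe set reads a sequence present in the vector, so every direction below rests on the labels. The arrays held both neuron and progenitor transcripts. The mean of 10 neuron markers was 12.21 to 12.47 in the arrays labelled Fezf2GFP and 11.82 to 12.42 in those labelled CtrlGFP at 48 h, and 11.37 to 11.64 with Fezf2GFP and 10.94 to 11.16 with CtrlGFP at 24 h. That of 8 radial glia markers was between 10.41 and 12.04 over all arrays.

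Between the vectors, the members that passed the test were all higher in the arrays labelled Fezf2GFP. At 48 h these were Shisa6 and Shisa9, which encode auxiliary proteins of AMPA receptors. At 24 h they were Shisa6, the scaffold gene Dlg2 and the AMPA receptor subunit Gria1. In bulk samples fewer cells of a type and less RNA per cell cannot be told apart. At 48 h, 2 of 23 tested members passed higher and 0 lower (2.7% and 0.427% of all genes) at a Benjamini-Hochberg adjusted p under 0.05 from limma. The members' median log2 fold change was 0.77, against 0.063 over all genes tested, and 19 of 23 lay above 0, against 57.3% of all genes. At 24 h, 3 of 23 passed higher and 0 lower (0.806% and 0.253% of all genes), with a median of 0.62 against 0.056 and 20 of 23 above 0 against 56.4%. The vectors were without overlap for 3 members at 48 h (Shisa6, Shisa9 and Grik1, all higher; 7.35% of all genes were higher without overlap). At 24 h they did not overlap for 8 members that were higher (12.6% of all genes) and 1 that was lower (7%). The filter on dim values bears on these counts, since a member that is high in 1 group only can enter through that group.

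The count at 24 h rested on single arrays. It was 1 without CtrlGFP 24 h replicate 2, Fezf2GFP 24 h replicate 1 or Fezf2GFP 24 h replicate 3 (0.486% to 0.709% of all genes), and 5 without CtrlGFP 48 h replicate 2 (1.6%). The count at 48 h was 1 without CtrlGFP 48 h replicate 3, CtrlGFP 48 h replicate 4 or Fezf2GFP 48 h replicate 3 (1.83% to 2.45%). Without the pair of control arrays that stood apart it was 5 (3.5% of all genes). These held the 2 that passed with all arrays, and Gria3 and Grik5 were among those gained. With array weights, which gave 19.7% of all genes as passing at 24 h, 8 members passed higher and 1 lower there.

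**Figure D1:**
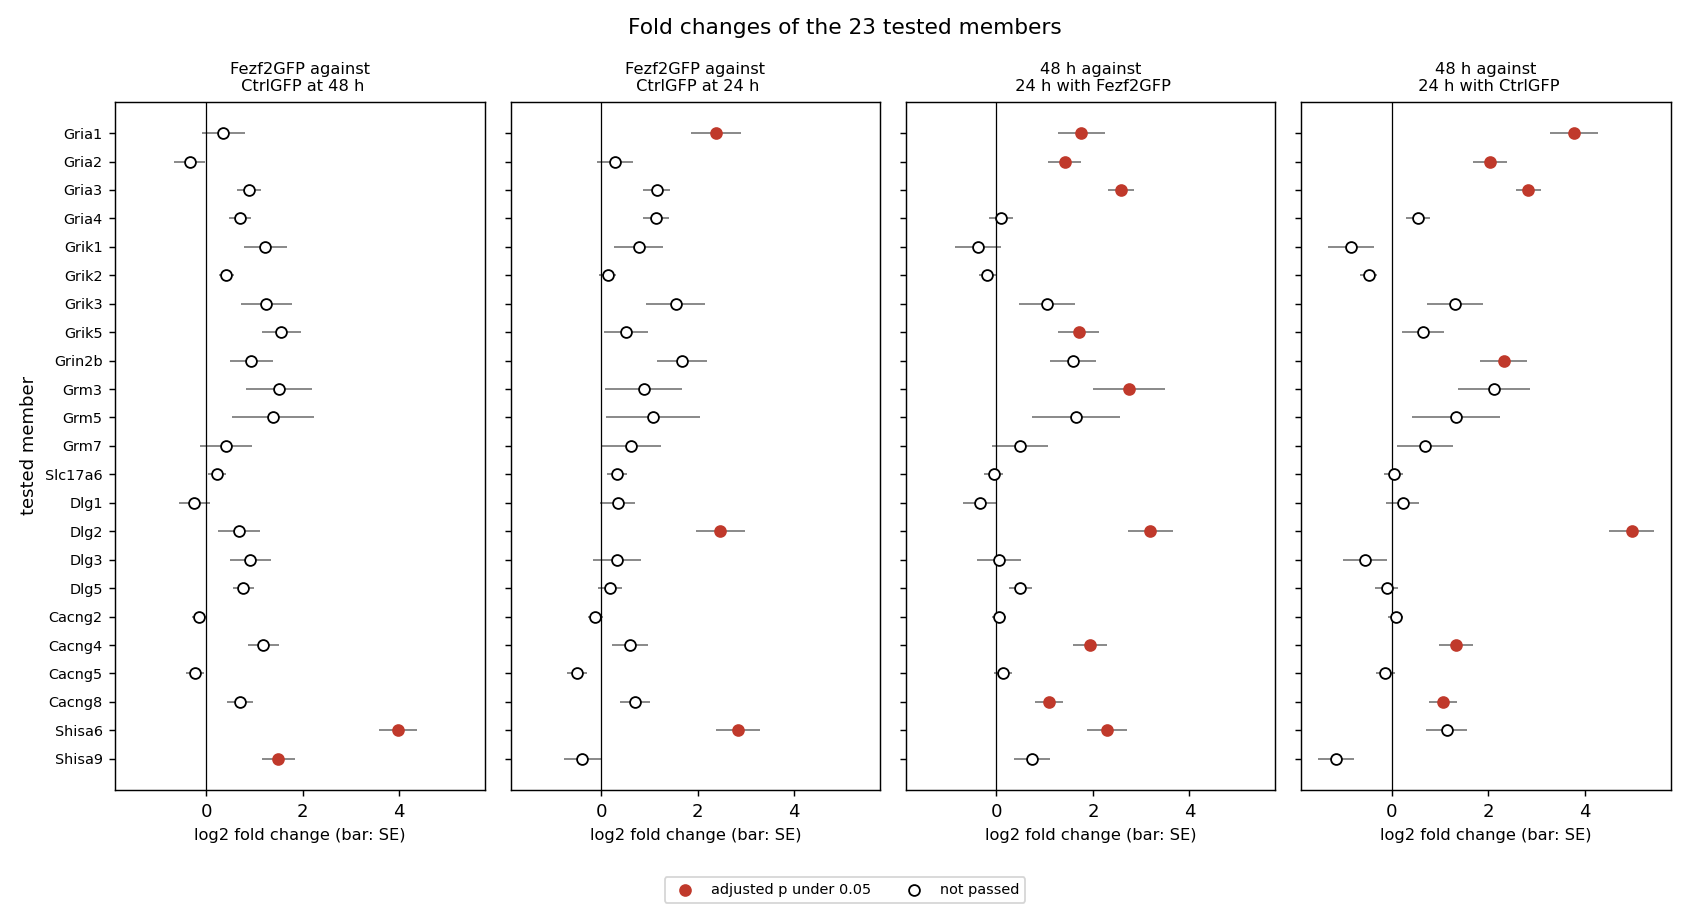
Fold changes of the 23 tested members. Each panel is 1 comparison, each point the log2 fold change of a member with its SE as a bar, and filled points passed at an adjusted p under 0.05. Filled points lie right of 0 in all 4 panels, with 2 at 48 h and 3 at 24 h between the vectors, and 9 with Fezf2GFP and 7 with CtrlGFP between the times.

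Between the times, several members rose with both vectors. The AMPA receptor subunits Gria1, Gria2 and Gria3, the scaffold Dlg2 and the auxiliary subunits Cacng4 and Cacng8 were higher at 48 h than at 24 h in both comparisons. With Fezf2GFP, 9 of 23 tested members passed higher and 0 lower (6.38% and 5.67% of all genes). The median log2 fold change of the 23 was 1.04, against -0.01 over all genes, and 19 lay above 0, against 48.8% of all genes. The arrays of the times did not overlap for 9, all higher (13.3% of all genes). With CtrlGFP, 7 passed higher and 0 lower (5.88% and 6.69% of all genes), with a median of 0.68 against -0.019 and 17 above 0 against 47.7%. Again 9 were higher without overlap (9.93% of all genes). The 2 time comparisons share no array. Of the members, 6 passed in both, 3 in the Fezf2GFP fit (Grik5, Grm3 and Shisa6) and 1 in the CtrlGFP fit (Grin2b). A difference between the vectors in the change with time is the interaction, and 0 of 23 members passed it by limma at an adjusted p under 0.05, against 0.0971% of all genes. At an unadjusted p under 0.05 the interaction held 3 members (4.94% of all genes), and with array weights 1 passed (2.33% of all genes). Neuron markers moved in the same direction: 4 of 10 neuron markers rose with Fezf2GFP and 5 of 10 with CtrlGFP between the times, and their part in the members' rise was not tested. Without Fezf2GFP 24 h replicate 2 or replicate 3 the count with Fezf2GFP was 4 (6.51% and 6.25% of all genes), and without Fezf2GFP 48 h replicate 3 it was 5 (8.89%). With all arrays 12.1% of all genes passed in either direction.

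**Figure D2:**
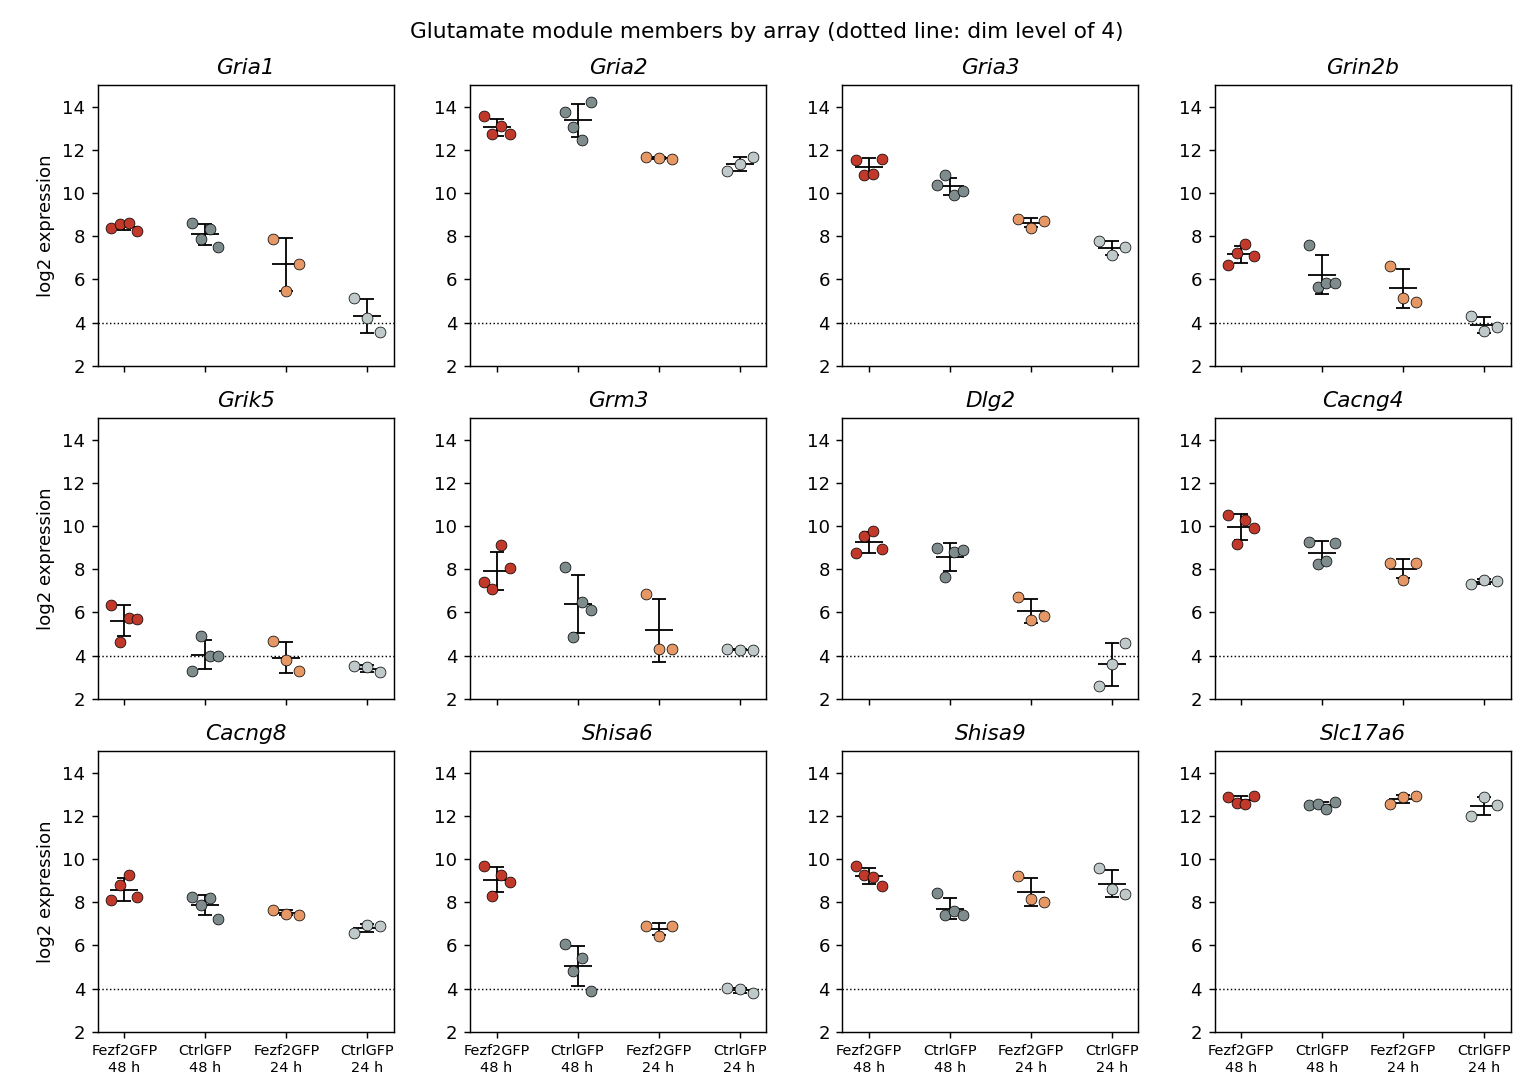
Log2 expression of 12 members in every array, with the mean and SD of each group as bars and the dim level of 4 as a dotted line. Shisa6 separates the vectors at both times and Shisa9 at 48 h. Gria1, Gria3, Grin2b, Dlg2 and Cacng8 separate them at 24 h, of which Gria3, Grin2b and Cacng8 did not pass there. Slc17a6 stays between 12.00 and 12.93 on all arrays.

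Shisa6 and Shisa9 encode membrane proteins that bind AMPA receptors and shape their desensitisation. Shisa6 lay at 9.66, 8.29, 9.26 and 8.94 in the arrays labelled Fezf2GFP at 48 h, against 6.08, 4.82, 5.41 and 3.91 in those labelled CtrlGFP. At 24 h the levels were 6.90, 6.43 and 6.91 with Fezf2GFP, against 4.01, 3.96 and 3.78 with CtrlGFP. Every array labelled Fezf2GFP was above every array labelled CtrlGFP, across both times, and 3 of the 7 control arrays were below the dim level. The rise at 48 h was 15.8-fold (log2 fold change 3.98, SE 0.39, adjusted p = 0.000151 by limma) and the log2 fold change at 24 h was 2.83 (SE 0.45, adjusted p = 0.0079). At 24 h 2 of 3 control arrays were below the dim level, and with these set to that level the rise was 6.69-fold. Both calls held in 25 of 25 alternative fits. With the mean over both Shisa6 probe sets, of which the second lay below the dim level on all arrays, the log2 fold changes were 1.98 and 1.40. Between the times Shisa6 rose with Fezf2GFP by a log2 fold change of 2.29 (SE 0.42, adjusted p = 0.00392, and 1.13 with the mean over probe sets). With CtrlGFP the value was 1.14 (SE 0.42 and adjusted p = 0.107), and it passed without CtrlGFP 48 h replicate 4 (1.52, adjusted p = 0.02). The interaction for Shisa6 was 1.15 (SE 0.60, adjusted p = 0.998 by limma).

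Shisa9 differed between the vectors at 48 h. It lay at 9.66, 9.24, 9.15 and 8.75 in the arrays labelled Fezf2GFP, against 8.41, 7.43, 7.58 and 7.39 in those labelled CtrlGFP, with no overlap. At 24 h the arrays overlapped, at 9.22, 8.17 and 8.02 with Fezf2GFP and 9.57, 8.63 and 8.39 with CtrlGFP. The rise at 48 h was 2.82-fold (log2 fold change 1.5, SE 0.34, adjusted p = 0.0317 by limma), while the 24 h value was -0.39 (SE 0.39 and adjusted p = 0.758). The levels at 48 h against 24 h were on opposite sides with the vectors, at 0.73 (SE 0.37) with Fezf2GFP and -1.16 (SE 0.37) with CtrlGFP, and neither passed (limma adjusted p = 0.25 and 0.0566). Among the 25 alternative fits the Fezf2GFP value passed higher in 2 and the CtrlGFP value lower in 6, with adjusted p-values down to 0.0157 and 0.00672. The interaction was 1.89 (SE 0.52, adjusted p = 0.462 by limma). The 48 h call for Shisa9 passed in 14 of 25 alternative fits. It ended without CtrlGFP 48 h replicate 2, 3 or 4 and without Fezf2GFP 48 h replicate 1, 2 or 3, with adjusted p-values between 0.0656 and 0.101. Its probe set is of a type whose probes can match more than 1 transcript. A second Shisa9 probe set, above the dim level on 2 arrays, differed by -0.11 at 48 h, and with the mean over the probe sets the log2 fold change was 0.46 (adjusted p = 0.196).

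The AMPA receptor subunits Gria1 to Gria4 form the channel pore, and Gria2 sets its low permeability to calcium. All 4 were tested. Gria1 lay at 7.88, 5.46 and 6.72 in the arrays labelled Fezf2GFP at 24 h, against 5.15, 4.22 and 3.56 in those labelled CtrlGFP. The arrays did not overlap, Fezf2GFP replicate 2 being close to the highest control, and 1 of 3 control arrays was below the dim level. The rise was 5.20-fold (log2 fold change 2.38, SE 0.52, adjusted p = 0.0498 by limma), and a second Gria1 probe set differed by 2.24. At 48 h the Gria1 arrays overlapped, at 8.38, 8.55, 8.61 and 8.23 with Fezf2GFP and 8.61, 7.88, 8.34 and 7.51 with CtrlGFP (log2 fold change 0.36, SE 0.45, adjusted p = 0.776). The interaction was -2.02 (SE 0.69, adjusted p = 0.818 by limma). The 24 h call lay at the threshold and passed in 9 of 25 alternative fits. It ended without any 1 of 11 arrays (CtrlGFP 24 h replicate 2 or 3, CtrlGFP 48 h replicate 1, 3 or 4, Fezf2GFP 24 h replicate 1 or 3, and any Fezf2GFP 48 h array), with adjusted p-values between 0.0546 and 0.214 and log2 fold changes between 1.78 and 2.38. After removal of the trend with gene span its log2 fold change was 2.18 (adjusted p = 0.0719).

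Gria1 rose between the times by 13.7-fold with CtrlGFP (log2 fold change 3.78, SE 0.49, adjusted p = 0.000389 by limma) and by 3.38-fold with Fezf2GFP (1.76, SE 0.49, adjusted p = 0.0324). The CtrlGFP call held in 25 of 25 alternative fits. The Fezf2GFP call held in 17, and ended without Fezf2GFP 24 h replicate 2 (1.15, adjusted p = 0.16), without Fezf2GFP 24 h replicate 3, and without Fezf2GFP 48 h replicate 1, 2 or 3.

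Gria2 lay at 13.57, 12.74, 13.08 and 12.75 with Fezf2GFP and 13.76, 13.05, 12.47 and 14.20 with CtrlGFP at 48 h. Its 24 h levels were 11.68, 11.62 and 11.58 with Fezf2GFP and 11.03, 11.33 and 11.66 with CtrlGFP. The vectors overlapped at both times, and every 48 h array was above every 24 h array. Between the times Gria2 rose by a log2 fold change of 1.41 with Fezf2GFP (SE 0.35, adjusted p = 0.018 by limma) and 2.03 with CtrlGFP (SE 0.35 and adjusted p = 0.00198). The 2 other Gria2 probe sets rose alike, by 1.37 and 1.55 with Fezf2GFP and by 2.14 and 1.53 with CtrlGFP. Without Fezf2GFP 24 h replicate 2 or 3 the Fezf2GFP call of Gria2 ended (adjusted p = 0.0664 to 0.0724). Between the vectors its log2 fold change was -0.34 at 48 h (SE 0.32) and 0.28 at 24 h (SE 0.37).

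Gria3 lay at 11.51, 10.81, 10.86 and 11.58 with Fezf2GFP and 10.38, 10.82, 9.91 and 10.10 with CtrlGFP at 48 h. The 24 h values were 8.77, 8.38 and 8.69 with Fezf2GFP and 7.79, 7.13 and 7.48 with CtrlGFP. All arrays at 48 h were above all arrays at 24 h, and the vectors did not overlap at 24 h. The rise with time was 5.96-fold with Fezf2GFP (log2 fold change 2.58, SE 0.26, adjusted p = 0.000104 by limma) and 7.12-fold with CtrlGFP (2.83, SE 0.26, adjusted p = 5.17e-05), and both calls held in 25 of 25 alternative fits. A second Gria3 probe set rose by 1.34 with Fezf2GFP and 1.01 with CtrlGFP. Between the vectors Gria3 stood at 0.89 at 48 h (SE 0.24, adjusted p = 0.0728 by limma) and 1.15 at 24 h (SE 0.28 and adjusted p = 0.0837), and passed in 2 of 25 alternative fits at each time. Without CtrlGFP 48 h replicate 2 its adjusted p was 0.0367 at 48 h and 0.0463 at 24 h. Without the pair of control arrays that stood apart Gria3 passed at 48 h (1.06, adjusted p = 0.0282). The second Gria3 probe set, above the dim level on all 14 arrays, differed between the vectors by 0.27 at 48 h and -0.05 at 24 h. Over the alternative fits the lowest log2 fold changes of Gria3 between the vectors were 0.58 at 48 h and 0.55 at 24 h.

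Gria4 was above the dim level on all arrays and passed in none of the comparisons by limma. It lay at 6.97, 6.48 and 6.76 with Fezf2GFP and 5.70, 5.72 and 5.37 with CtrlGFP at 24 h. There was no overlap, and the log2 fold change was 1.14 (SE 0.27, adjusted p = 0.0681 by limma). At 48 h the arrays of the vectors overlapped and the value was 0.70 (SE 0.23 and adjusted p = 0.142). Its change with time was 0.10 (SE 0.25) with Fezf2GFP and 0.54 (SE 0.25) with CtrlGFP.

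Most Cacng genes of the module encode transmembrane regulatory proteins of AMPA receptors, among them Cacng2, which encodes stargazin. Of the 7 Cacng genes, Cacng2, Cacng4, Cacng5 and Cacng8 were tested. Cacng4 lay at 10.50, 9.15, 10.29 and 9.89 with Fezf2GFP and 9.24, 8.22, 8.37 and 9.23 with CtrlGFP at 48 h. At 24 h the levels were 8.28, 7.50 and 8.27 with Fezf2GFP and 7.31, 7.51 and 7.46 with CtrlGFP. With each vector all 48 h arrays were above all 24 h arrays, while 1 array labelled Fezf2GFP fell among the controls at each time. Cacng4 rose with time by a log2 fold change of 1.94 with Fezf2GFP (SE 0.35, adjusted p = 0.00305 by limma) and 1.34 with CtrlGFP (SE 0.35 and adjusted p = 0.0221). With the mean over both probe sets, the second being below the dim level throughout, these values were 1.17 and 0.67. The CtrlGFP call ended without any 1 of the CtrlGFP 24 h arrays and without CtrlGFP 48 h replicate 1 or 4 (adjusted p = 0.0578 to 0.0733). Between the vectors Cacng4 stood at 1.19 at 48 h (SE 0.32, adjusted p = 0.0654 by limma, and 0.0269 without Fezf2GFP 48 h replicate 2) and 0.59 at 24 h (SE 0.37 and adjusted p = 0.693).

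Cacng8 lay at 8.08, 8.78, 9.24 and 8.25 with Fezf2GFP and 8.23, 7.85, 8.18 and 7.24 with CtrlGFP at 48 h. Its 24 h levels were 7.65, 7.46 and 7.43 with Fezf2GFP and 6.59, 6.94 and 6.91 with CtrlGFP. The vectors overlapped at 48 h and not at 24 h. Cacng8 rose with time by 1.08 with Fezf2GFP (SE 0.29, adjusted p = 0.0267 by limma) and 1.06 with CtrlGFP (SE 0.29 and adjusted p = 0.0275), and with the mean over probe sets both were 0.53. The Fezf2GFP call ended without any 1 of the Fezf2GFP 24 h arrays and without Fezf2GFP 48 h replicate 2 or 3 (adjusted p = 0.0533 to 0.103). The CtrlGFP call ended without any 1 of the CtrlGFP 24 h arrays and without CtrlGFP 48 h replicate 1 or 3 (adjusted p = 0.0609 to 0.101), and without the pair of control arrays that stood apart it was 0.125. The log2 fold change of Cacng8 between the vectors was 0.71 at 48 h (SE 0.27) and 0.70 at 24 h (SE 0.31), and neither passed. Cacng5 was the 1 member lower without overlap at 24 h, at 6.44, 6.55 and 6.61 with Fezf2GFP against 6.82, 7.16 and 7.13 with CtrlGFP, and it did not pass (log2 fold change -0.50, SE 0.21, adjusted p = 0.472 by limma). Cacng2 stayed between 4.19 and 4.82 on all 14 arrays, just above the dim level. A second Cacng2 probe set, above that level on 4 arrays, was higher at 48 h by 1.27 with Fezf2GFP and 1.23 with CtrlGFP. It was not tested.

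The Dlg genes encode scaffold proteins of the membrane-associated guanylate kinase family. Dlg1 to Dlg4 encode proteins that hold receptors at synapses and other membranes, and Dlg5 a relative with roles at cell junctions. Dlg2 lay at 8.76, 9.53, 9.78 and 8.94 with Fezf2GFP and 8.99, 7.62, 8.79 and 8.88 with CtrlGFP at 48 h. The 24 h values were 6.71, 5.66 and 5.83 with Fezf2GFP and 2.61, 3.60 and 4.60 with CtrlGFP. The vectors overlapped at 48 h and not at 24 h, where 2 of 3 control arrays were below the dim level. Dlg2 passed higher at 24 h (log2 fold change 2.47, SE 0.50, adjusted p = 0.0303 by limma), by 3.65-fold with control arrays below the dim level set to that level, and the 48 h value was 0.68 (SE 0.43 and adjusted p = 0.513). The interaction was -1.78 (SE 0.66, adjusted p = 0.856 by limma). The 24 h call ended without CtrlGFP 24 h replicate 1 or 2 and without any 1 of the Fezf2GFP 24 h arrays (adjusted p = 0.0553 to 0.183). A second Dlg2 probe set, above the dim level on 5 arrays, differed by -0.18 at 24 h, and with the mean over the probe sets the value was 0.73 (adjusted p = 0.119).

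Dlg2 also rose with time with both vectors. With CtrlGFP, where 2 of 3 arrays at 24 h were below the dim level, the log2 fold change was 4.97 (SE 0.46, adjusted p = 5.17e-05 by limma) and with Fezf2GFP it was 3.19 (SE 0.46 and adjusted p = 0.000975). Both calls held in 25 of 25 alternative fits, with values of 1.95 and 1.27 for the mean over the probe sets. Dlg1, Dlg3 and Dlg5 were above the dim level on all 14 arrays and passed in none of the comparisons. Dlg5 came nearest at 48 h, at 10.35, 10.82, 11.16 and 11.12 with Fezf2GFP and 10.37, 9.68, 10.20 and 10.09 with CtrlGFP, where 1 array labelled Fezf2GFP overlapped (log2 fold change 0.77, SE 0.22, adjusted p = 0.0799 by limma). Dlg3 stood at 6.18 in CtrlGFP 48 h replicate 2, against 7.95 to 8.66 in the other arrays of that group. Dlg4, whose product is the major scaffold of mature excitatory synapses, stayed between 2.13 and 2.23 and was not tested.

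The NMDA receptor needs coincident glutamate and depolarisation to open, and Grin2b encodes the subunit that prevails before birth. Of 6 NMDA receptor genes measured, Grin2b was tested and Grin2a, Grin2c, Grin2d, Grin3a and Grin3b were not. Grin2b lay at 6.65, 7.23, 7.62 and 7.10 with Fezf2GFP and 7.57, 5.63, 5.83 and 5.83 with CtrlGFP at 48 h. At 24 h the levels were 6.63, 5.14 and 4.96 with Fezf2GFP and 4.31, 3.59 and 3.78 with CtrlGFP. Among the 48 h controls replicate 1 stood high and overlapped the arrays labelled Fezf2GFP, while at 24 h the vectors did not overlap and 2 of 3 controls were below the dim level. Grin2b rose with time with CtrlGFP (log2 fold change 2.32, SE 0.48, adjusted p = 0.00653 by limma), a call that held in 24 of 24 alternative fits. With the arrays below the dim level set to that level the rise was 4.32-fold. With Fezf2GFP the value was 1.58 (SE 0.48 and adjusted p = 0.0512). It passed without Fezf2GFP 24 h replicate 1, CtrlGFP 48 h replicate 1 or CtrlGFP 48 h replicate 2 (adjusted p = 0.0145 to 0.0466), and without the pair of control arrays that stood apart (1.58, adjusted p = 0.0468). Between the vectors it stood at 0.94 at 48 h (SE 0.45 and adjusted p = 0.347) and 1.68 at 24 h (SE 0.52 and adjusted p = 0.207). The other Grin2b probe sets were above the dim level on at most 1 array.

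Kainate receptors are built from low-affinity subunits (Grik1 to Grik3), which form channels alone, and high-affinity subunits (Grik4 and Grik5), which need a partner. Grik5 lay at 6.34, 4.63, 5.76 and 5.70 with Fezf2GFP and 3.30, 4.89, 4.0 and 4.0 with CtrlGFP at 48 h. Its 24 h levels were 4.67, 3.78 and 3.27 with Fezf2GFP and 3.51, 3.45 and 3.23 with CtrlGFP. All 4 arrays labelled Fezf2GFP at 48 h were above the dim level, and 1 of 3 was at 24 h, while no CtrlGFP array was above it at 24 h. Grik5 rose with time with Fezf2GFP by a log2 fold change of 1.70 (SE 0.43, adjusted p = 0.0207 by limma), with 1 array overlapping. That call ended without Fezf2GFP 24 h replicate 2 or 3 and without Fezf2GFP 48 h replicate 1 or 3 (adjusted p = 0.0535 to 0.117). With CtrlGFP all 24 h arrays were below the dim level, and the 48 h mean of 4.05 was 1.03-fold above that level. The arrays of the times overlapped, and Grik5 did not pass (limma adjusted p = 0.412). Between the vectors it stood at 1.56 at 48 h (SE 0.40, adjusted p = 0.0542 by limma), with CtrlGFP replicate 2 above 1 array labelled Fezf2GFP. It passed there without CtrlGFP 48 h replicate 2, Fezf2GFP 48 h replicate 2 or Fezf2GFP 24 h replicate 1 (adjusted p = 0.0239 to 0.0416), and without the pair of control arrays that stood apart (1.84, adjusted p = 0.0339).

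Grik1, Grik2 and Grik3 passed in none of the comparisons, and Grik4 was not tested. Grik1 lay at 4.26, 4.34, 5.62 and 4.73 with Fezf2GFP and 4.19, 3.63, 3.50 and 2.71 with CtrlGFP at 48 h. The groups did not overlap, by a narrow margin, and the log2 fold change was 1.23 (SE 0.44, adjusted p = 0.186 by limma). Grik3 lay between 9.69 and 10.52 with Fezf2GFP and at 10.60, 7.42, 8.99 and 8.38 with CtrlGFP at 48 h. Its highest and its lowest array there were both controls. At 24 h it was higher without overlap, at 9.94, 8.74 and 8.52 with Fezf2GFP against 7.89, 7.44 and 7.26 with CtrlGFP (log2 fold change 1.54, SE 0.62, adjusted p = 0.436 by limma). Grik2 stayed between 8.65 and 9.67 on all arrays.

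Metabotropic receptors of group I (among them Grm5) couple to phospholipase C, and those of groups II and III (among them Grm2, Grm3, Grm4, Grm7 and Grm8) lower cyclic AMP. Of 6 measured, Grm3, Grm5 and Grm7 were tested. Grm3 lay at 7.41, 7.09, 9.10 and 8.06 with Fezf2GFP and 8.12, 4.87, 6.49 and 6.12 with CtrlGFP at 48 h. The 24 h values were 6.86, 4.31 and 4.32 with Fezf2GFP and 4.31, 4.27 and 4.26 with CtrlGFP. Within each vector every 48 h array was above every 24 h array, and the vectors overlapped at both times. All 24 h arrays but Fezf2GFP replicate 1 lay just above the dim level, so the folds with time start from values near it. Grm3 rose with time by 6.71-fold with Fezf2GFP (log2 fold change 2.75, SE 0.75, adjusted p = 0.0296 by limma). This call ended without Fezf2GFP 24 h replicate 2 or 3 and without Fezf2GFP 48 h replicate 3 or 4 (adjusted p = 0.0532 to 0.144). With CtrlGFP the value was 2.12 (SE 0.75 and adjusted p = 0.0853), and it passed without either Fezf2GFP 24 h replicate 1 or CtrlGFP 48 h replicate 2 (adjusted p = 0.0285 to 0.0475). The interaction for Grm3 was 0.63 (SE 1.05, adjusted p = 0.998 by limma). Between the vectors Grm3 stood at 1.51 at 48 h (SE 0.69) and 0.88 at 24 h (SE 0.80), and without Fezf2GFP 24 h replicate 1 the 24 h value was 0.04.

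Grm5 and Grm7 were near the dim level and split within groups. Grm5 lay at 3.82, 4.19, 6.85 and 7.15 with Fezf2GFP and 5.48, 3.35, 3.87 and 3.79 with CtrlGFP at 48 h. At 24 h the levels were 5.79, 2.54 and 3.24 with Fezf2GFP and 3.48, 2.45 and 2.44 with CtrlGFP. Grm7 was above the dim level on 4 arrays, Fezf2GFP 48 h replicates 1 and 3 (4.45 and 4.64), CtrlGFP 48 h replicate 1 (4.53) and Fezf2GFP 24 h replicate 1 (4.39). Neither gene passed in any comparison. Each was the highest or next to the highest of its group in the arrays with the highest GABAergic neuron marker means, named below. Grm5 was highest of all, at 7.15, in Fezf2GFP 48 h replicate 4, where the mean of those markers was the lowest of its group (5.46).

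Slc17a6 and Slc17a7 encode the vesicular glutamate transporters that load glutamate into vesicles of projection neurons, and in the rodent cortex Slc17a6 comes first in development. Slc17a6 lay at 12.85, 12.58, 12.55 and 12.90 with Fezf2GFP and 12.48, 12.54, 12.30 and 12.64 with CtrlGFP at 48 h. Its 24 h levels were 12.56, 12.85 and 12.93 with Fezf2GFP and 12.00, 12.86 and 12.49 with CtrlGFP. The groups overlapped at both times. Its log2 fold change was 0.23 at 48 h (SE 0.18, adjusted p = 0.623 by limma) and 0.33 at 24 h (SE 0.21 and adjusted p = 0.697) between the vectors, and -0.06 with Fezf2GFP (SE 0.20) and 0.04 with CtrlGFP (SE 0.20) between the times. A second Slc17a6 probe set differed by 0.33 at 48 h and 0.22 at 24 h between the vectors. Slc17a7 stayed between 2.83 and 3.11 on all 14 arrays and was not tested.

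**Figure D3:**
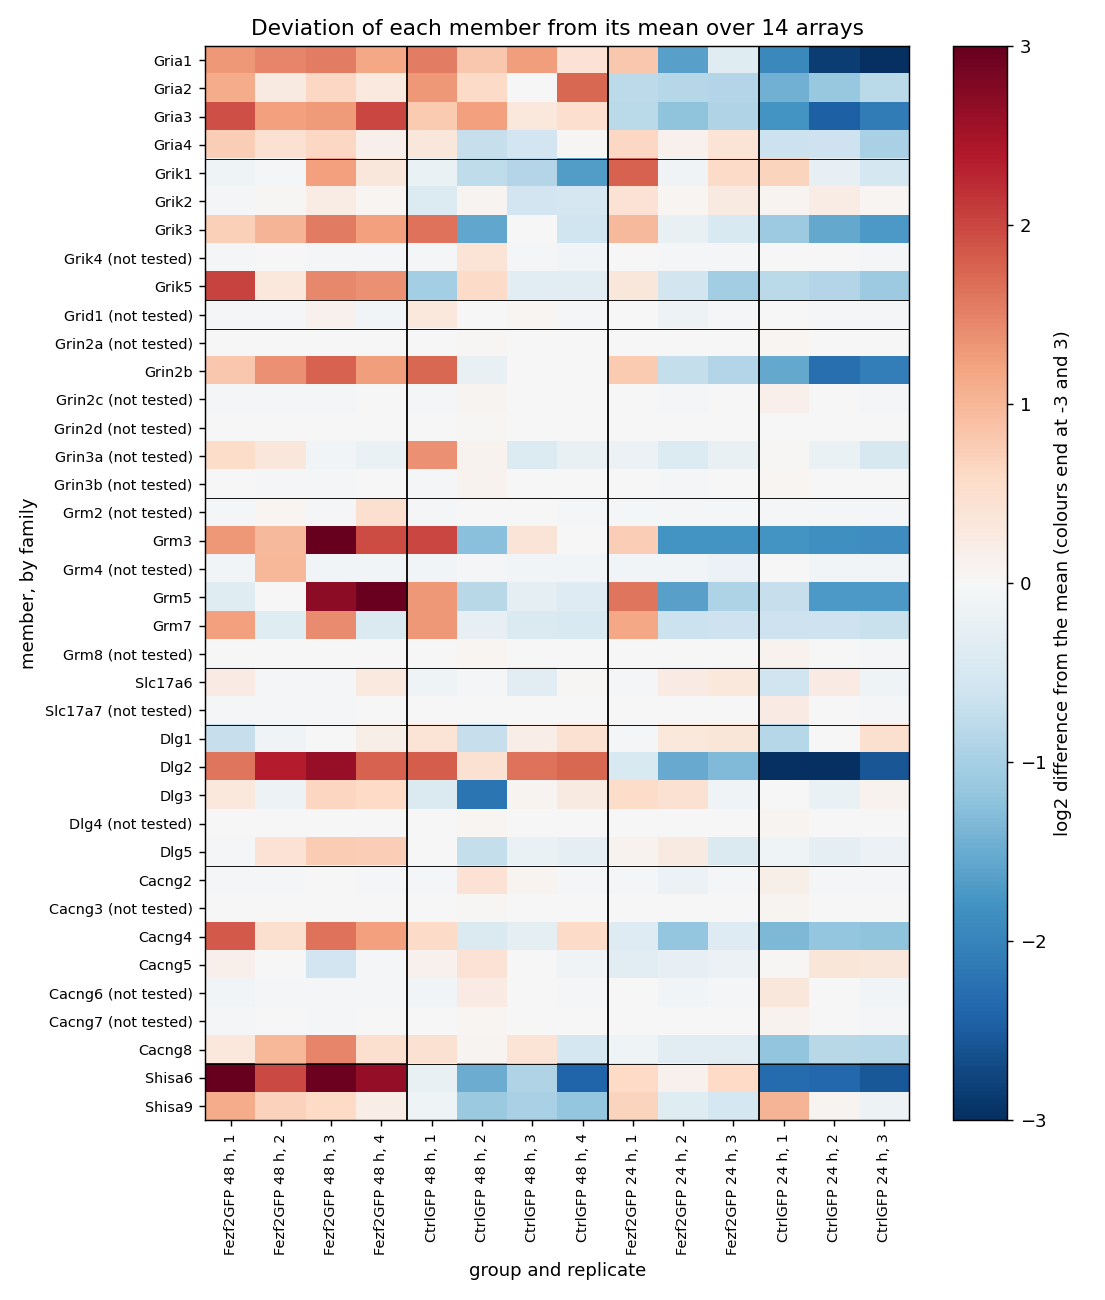
Deviation of each of the 38 members from its own mean over the 14 arrays, on the log2 scale, with arrays in columns and families separated by lines. Red cells are above the mean and blue cells below it. The Gria1, Gria2, Gria3 and Dlg2 lines are mostly red at 48 h and mostly blue at 24 h with both vectors, the Shisa6 line is red with Fezf2GFP, and the lines marked not tested stay pale apart from Grin3a and single arrays of Grm4 and Grm2.

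The 15 members that were not tested had values between 1.82 and 4.79. They were Cacng3, Cacng6, Cacng7, Dlg4, Grid1, Grik4, Grin2a, Grin2c, Grin2d, Grin3a, Grin3b, Grm2, Grm4, Grm8 and Slc17a7. Of these, 13 were above the dim level on no array, Grin3a on 1 (4.79 in CtrlGFP 48 h replicate 1) and Grm4 on 1 (4.21 in Fezf2GFP 48 h replicate 2). Just inside the limit were Grm7 with 4 arrays, Grm5 with 5 and Grik5 with 7. Grid1, a delta receptor gene, lay between 2.60 and 3.08. A value below the dim level limits what the array can show and does not show that a transcript was absent. Of the 23 tested members, 15 were above the dim level on all 14 arrays, 11 passed in at least 1 comparison and 12 passed in none.

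A list of other genes of the glutamate synapse was read in the same fits, with 52 names, 47 measured and 36 tested. Between the vectors 2 passed at 48 h and 1 at 24 h, all higher with Fezf2GFP (2.7% and 0.806% of all genes). The median log2 fold changes were 0.31 at 48 h and 0.23 at 24 h, against 0.063 and 0.056 over all genes. Gsg1l encodes a further auxiliary protein of AMPA receptors. It lay at 6.27, 5.40, 6.62 and 6.28 with Fezf2GFP at 48 h, against 3.92, 3.92, 3.92 and 3.25 with CtrlGFP, where all 4 arrays were below the dim level. It was at least 4.41-fold higher (limma adjusted p = 0.000332). Shank3, a scaffold gene, lay at 4.46, 5.38, 5.91 and 5.04 with Fezf2GFP at 48 h, against 4.28, 3.57, 3.57 and 3.88 with CtrlGFP. Its arrays did not overlap, 3 of 4 controls were below the dim level, and the log2 fold change was 1.37 (SE 0.30, adjusted p = 0.0259 by limma). Lin7a, an adaptor of scaffold complexes, lay at 7.16, 6.37 and 6.57 with Fezf2GFP at 24 h, against 4.03, 5.16 and 5.39 with CtrlGFP. It rose by a log2 fold change of 1.84 (SE 0.32, adjusted p = 0.0119 by limma).

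Between the times 10 of these 36 genes passed higher and 0 lower at 48 h with Fezf2GFP (6.38% and 5.67% of all genes). With CtrlGFP 10 passed higher and 1 lower (5.88% and 6.69% of all genes). In both, 6 passed higher (Cnih2, Kalrn, Lin7a, Neto2, Nptx1 and Slc1a1). Cnih2, a cornichon protein that escorts AMPA receptors, rose by 1.74 with Fezf2GFP (SE 0.25, adjusted p = 0.000982 by limma) and 2.11 with CtrlGFP (SE 0.25 and adjusted p = 0.000304). Slc1a1, a neuronal glutamate transporter, rose by 1.47 with Fezf2GFP and 1.36 with CtrlGFP. Lin7a rose by 1.51 with Fezf2GFP and 2.33 with CtrlGFP. With Fezf2GFP, Gsg1l rose by 2.29 (SE 0.28) and Grip1, which binds AMPA receptor tails, by 1.07 (SE 0.23). With CtrlGFP, Cbln1, a secreted synaptic organiser, rose by 1.44 (SE 0.27) and Nptx1, a pentraxin that clusters AMPA receptors, by 2.77 (SE 0.55). The gene that was lower with CtrlGFP was Slc1a3, a glutamate transporter of radial glia, at -0.93 (SE 0.26, adjusted p = 0.0344 by limma). The rises given here with values are those with the 5 smallest p-values of each comparison, and Slc1a3 was chosen after its value was seen.

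**Figure D4:**
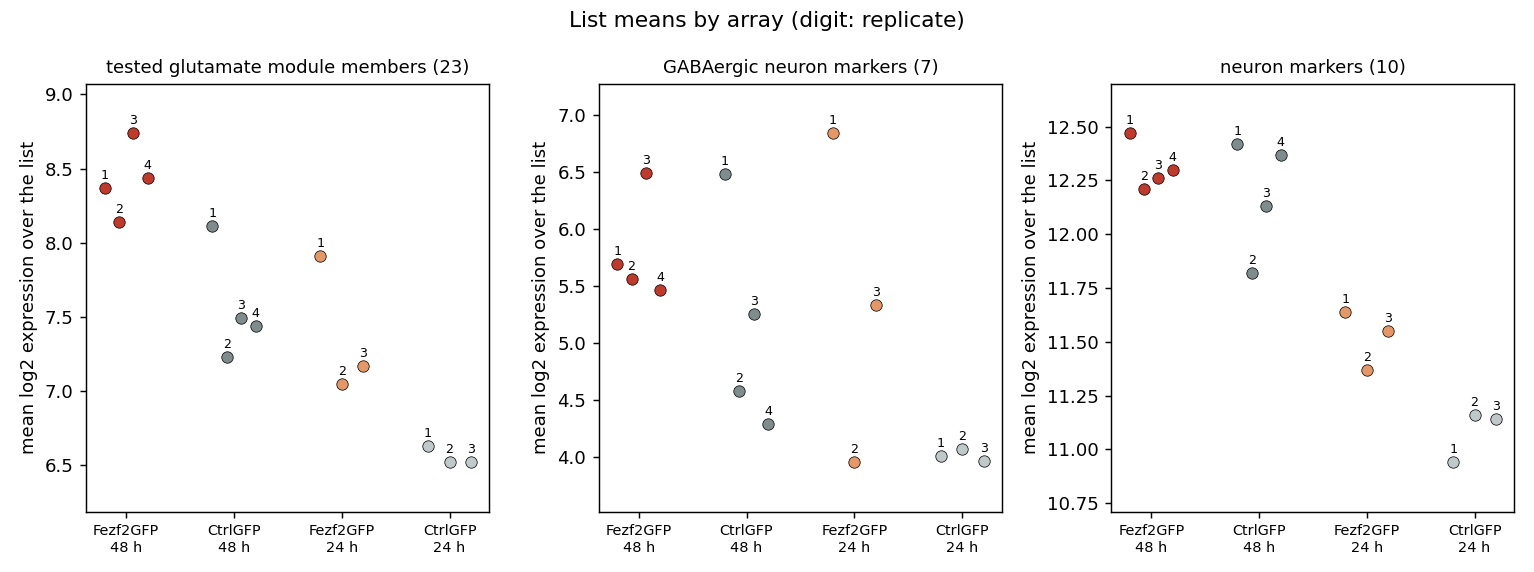
Mean log2 expression per array over the 23 tested members, the 7 GABAergic neuron markers and the 10 neuron markers, with replicate numbers beside the points. Each panel has its own axis. Fezf2GFP 24 h replicate 1 and CtrlGFP 48 h replicate 1 are the highest of their groups for the members and for the GABAergic markers.

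Markers of other cells moved with some of these results. The mean over the tested members was 8.37, 8.14, 8.74 and 8.44 in the arrays labelled Fezf2GFP and 8.11, 7.23, 7.49 and 7.44 in those labelled CtrlGFP at 48 h. At 24 h it was 7.91, 7.05 and 7.17 with Fezf2GFP and 6.63, 6.52 and 6.52 with CtrlGFP. The groups overlapped at neither time. The mean over 7 GABAergic neuron markers ranged over 5.46 to 6.49 with Fezf2GFP and 4.29 to 6.48 with CtrlGFP at 48 h, and over 3.95 to 6.84 with Fezf2GFP and 3.96 to 4.07 with CtrlGFP at 24 h. These means overlapped between the vectors at both times. All 7 markers had log2 fold changes above 0 at 24 h and 6 of 7 at 48 h (56.4% and 57.3% of all genes). By limma 0 passed in any comparison. The highest GABAergic means were in Fezf2GFP 24 h replicate 1, Fezf2GFP 48 h replicate 3 and CtrlGFP 48 h replicate 1. In these arrays Grm3, Grm5, Grm7, Grin2b and Grik3 were also the highest or next to the highest of their groups. The same held for Gria1, Dlg2 and Shisa6, which passed between the vectors at 24 h. It also held for Gria2, Gria4, Cacng4, Cacng8, Dlg5, Grik1 and Grik2. The remaining tested members ranked lower in some of these arrays. Grm5 was higher still in Fezf2GFP 48 h replicate 4 (7.15), where the GABAergic mean was the lowest of that group (5.46). Glutamate receptor genes are also used by GABAergic neurons, and the part of these cells in the members' values was not tested.

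Of the neuron markers 0 of 10 passed between the vectors at either time. Of these 10, 8 lay above 0 at 24 h and 7 at 48 h (56.4% and 57.3% of all genes). Their means at 24 h did not overlap, at 11.37 to 11.64 with Fezf2GFP and 10.94 to 11.16 with CtrlGFP, and those at 48 h did. All 8 radial glia markers had log2 fold changes below 0 with time, of which 2 fell with CtrlGFP and 0 with Fezf2GFP, and Nes was higher with Fezf2GFP at 48 h (1.30, SE 0.21, adjusted p = 0.00472 by limma). Of 5 intermediate progenitor markers 3 fell with Fezf2GFP and 4 with CtrlGFP between the times. Of 5 Cajal-Retzius markers, 2 were tested, of which Calb2 was higher with Fezf2GFP at 48 h (limma adjusted p = 0.000332) and Reln did not pass (2.48, SE 0.62, adjusted p = 0.0508). Calb2 also rose with time with Fezf2GFP (4.51, SE 0.55, adjusted p = 0.000368). Of 5 oligodendrocyte lineage markers 2 were tested, and both rose with time with CtrlGFP, Olig1 by a log2 fold change of 4.54 (SE 0.72, adjusted p = 0.00123 by limma) and Olig2 by 1.93 (SE 0.43 and adjusted p = 0.00911). With Fezf2GFP these values were 2.23 (adjusted p = 0.0629) and 0.42 (adjusted p = 0.628). The mean over the 5 was 3.80 to 4.17 with Fezf2GFP and 3.98 to 5.02 with CtrlGFP at 48 h, and 3.10 to 4 with Fezf2GFP and 3.22 to 3.60 with CtrlGFP at 24 h. Of the endothelial and microglia markers, 4 of 5 each were above the dim level on no array of any group, as were 4 of 4 meningeal fibroblast markers. Of 4 mural and 4 erythroid markers measured, 2 each were tested and 0 passed. The mural mean was 4.77 to 5.58 with Fezf2GFP and 4.32 to 4.96 with CtrlGFP at 48 h. At 24 h it was 3.93 to 5.5 with Fezf2GFP and 3.93 to 4.8 with CtrlGFP. The erythroid mean was 5.6 in CtrlGFP 24 h replicate 1, and 3.34 and 3.2 in replicates 2 and 3. The part of these cells in the members' values was not tested.

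The members are long genes, and fold changes rose with gene span in these arrays. The median span of the tested members was 240 kb, against 25.3 kb over all genes tested. Across 10268 genes, which are not independent replicates, Spearman's rho between span and log2 fold change was 0.281 at 48 h and 0.269 at 24 h between the vectors, and 0.0739 with Fezf2GFP and 0.0608 with CtrlGFP between the times. The 468 genes at least as long as the members' median had a median log2 fold change of 0.28 at 48 h and 0.33 at 24 h. With the trend removed the members' medians were 0.62 at 48 h and 0.45 at 24 h. Then 1 member passed at 48 h (2.49% of all genes) and 2 at 24 h (1.27%). The calls that ended were Shisa9 at 48 h, at a log2 fold change of 1.22 against 1.5 before (limma adjusted p = 0.1), and Gria1 at 24 h, at 2.18 against 2.38. The part of gene span in the members' values was not otherwise tested.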

How the data were processed

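RNA of FACS-sorted cells was amplified by consecutive rounds of in vitro transcription and hybridised to Affymetrix mouse arrays, per the labels' protocols. The authors deposited 1 log2 value per probe set and array, made with GCRMA, which the submitters' processing notes name. Its version, its settings and array dates: not given in the sources used here. Of 45037 probe sets, 34945 had 1 gene symbol in the platform annotation, 932 several and 9160 none. All 38 member symbols matched RefSeq genes. Precision is limited by the number of arrays and, for dim genes, by signal over background.

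With limma 3.58.1 in R 4.3.3, lmFit took 1 mean for each group over the 14 arrays, followed by eBayes with its default prior. Adjusted p-values are Benjamini-Hochberg values over the 10295 tested genes, with a threshold of 0.05. The SE of a fold change is limma's. Where a group had no array above 4, a fold is written "at least" and measured against 4. The functions were tested on simulated data.

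Members, lists and tests were chosen with earlier results of these data known. The naming rule took each member that passed, the highest member of a family in which none passed, Gria1, Gria2, Gria3, Grik5, Grin1, Slc17a6, Slc17a7, Shisa6 and Dlg4, and per comparison up to 5 passing genes of the other synapse list. Other members are named so that all are accounted for. Alternatives were the dim filter, quantile normalization, median centring, the mean over probe sets, array weights, eBayes settings, the replicate block, the gene span trend, the groups compared alone and leaving out arrays. Replicate numbers were not taken to pair the samples.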

Additional observations from a re-analysis of the deposited data

Results flagged for a closer look

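In 46 groups of 4 arrays of the tested members, the gap between 1 array and the nearest of the others was measured against the whole range of the group. The limit used is passed by chance in about 5% of groups, and 3 groups passed it, all of them CtrlGFP at 48 h. Grin2b stood at 7.57 in replicate 1, against 5.63 to 5.83 in the other arrays of the group. Grm7 stood at 4.53 in replicate 1, against 2.76 to 2.99. Dlg2 stood at 7.62 in replicate 2, against 8.79 to 8.99. Replicate 1 also had the highest mean over the 7 GABAergic neuron markers in its group (6.48), and replicate 2 is 1 of the pair of control arrays that stood apart. The part of either in these values was not tested.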

How the results depend on the processing

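Of 50 single-gene results, 28 kept their direction and side of the threshold in all alternatives, and of 1238 values 80 lost their call, 36 gained one and 0 changed sign. The limma count of members passing at 24 h between the vectors (3) was 1 with no filter on dim probe sets, with the mean over probe sets and with only the groups compared, 9 with array weights, and 1 to 5 when leaving out single arrays. At 48 h (2) it was 1 with no filter, quantile normalization, median centring or the span trend removed, 5 without the pair of control arrays, and 1 to 3 when leaving out single arrays. Between the times the count with Fezf2GFP (9) was 5 with no filter and 4 to 10 when leaving out single arrays, and with CtrlGFP (7) it was 13 with array weights (11 higher and 2 lower, with 29.9% of all genes passing) and 5 to 10. With median centring 7 were higher and 1 lower with CtrlGFP, and without the pair of control arrays 6 were higher and 1 lower. The interaction (0) was 1 with array weights. The array weights stopped short of convergence, and without the filter more genes entered the fit and the adjustment. The cause of these differences was not tested.

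Same-numbered arrays correlated at -0.399 to 0.318 in their deviations from group means, and not every array matched its own number best. With the replicate number as a block the counts were 2 at 48 h, 2 at 24 h, 0 for the interaction, 9 with Fezf2GFP (7 of them shared) and 9 with CtrlGFP (8 higher and 1 lower). The calls that ended were Dlg2 at 24 h (adjusted p = 0.0642) and, with Fezf2GFP between the times, Gria2 (0.0511) and Grik5 (0.055). Those gained between the times were Shisa9 with Fezf2GFP (0.86, adjusted p = 0.0157), lower with CtrlGFP (-1.03, adjusted p = 0.00672), Grin2b with Fezf2GFP (1.65, adjusted p = 0.0459) and Shisa6 with CtrlGFP (1.34, adjusted p = 0.0292). Median centring moved the median of all genes to -0.114 at 48 h and -0.19 at 24 h between the vectors, against members' medians of 0.60 and 0.37. Members' medians stayed above 0 in the 4 comparisons with each scaling tried. Of the 23 tested members 8 were below the dim level on some array, where differences are compressed.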
